A study of Homo sapiens with 5 samples.

Results

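The zinc finger genes of human chromosome 19 described here were the protein-coding genes of GENCODE release 44 on that chromosome whose symbol is ZNF followed only by digits. There were 240 of them among 20007 protein-coding gene symbols of the genome. They were set beside the 1236 other protein-coding genes of chromosome 19 and the 236 genes with such symbols on other chromosomes. The measurement was chromatin immunoprecipitation followed by sequencing (ChIP-seq) of the transcription factor TEAD4 in LX-2, an established human hepatic stellate cell line. All samples received DMSO, the solvent control, so no treatment contrast was available. There were 3 TEAD4 ChIP samples and 2 input samples, 1 of the inputs being labelled for replicates 1 and 2 together. The peak list came from replicates 1 and 3 combined, replicate 2 being left out for low concordance, and held 21113 peaks, 467 of them on chromosome 19. It gives no value per replicate, so differences could not be set against replicate spread and no test was run. Intervals below are Wilson 95% intervals unless named otherwise, and they cover counting error only. Where a count was 0, the share it is said to allow is 3 divided by the number counted, a rough upper limit.

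Most ZNF genes encode proteins with arrays of C2H2 zinc fingers, each of which folds around a zinc ion and contacts DNA. Many also carry a KRAB domain, which recruits the corepressor TRIM28 and, through it, a histone methyltransferase and heterochromatin protein 1, and a large share of these proteins is known for silencing transposable elements. The genes arose largely by tandem duplication and lie on chromosome 19 in clusters of related copies, with the finger array usually encoded by the last exon. TEAD4 binds DNA through its TEA domain at sites that hold the letters CATTCC, acts with the coactivator YAP1, and is often found near sites of AP-1, a dimer of FOS and JUN proteins.

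The sequences at the summits are shown first. A summit is the base that the deposited list gives as the highest point of a peak. Each line holds 30 bases of hg38 centred on a 6-base core, with the core in capitals, read 5′ to 3′ on the strand that carries it. These genes were chosen because their peaks had high signal values or their summits lay close to a start site or to a core. The cores searched were CATTCC, which is part of the TEAD motif ACATTCC, and AATTCC.
ZNF763 (chr19:11965023-11965052, + strand): cagagtgggtcgCATTCCtgtcctcacctt
ZNF439 (chr19:11848742-11848771, + strand): cggaggatgttgCATTCCtgccgtcacctt
ZNF625 (chr19:12156721-12156750, - strand): aaggggaggccgCATTCCcgctttcctgac
ZNF878 (chr19:12052960-12052989, - strand): aaggggaggttgCATTCCcgctctcttcac
ZNF432 (chr19:52048820-52048849, - strand): gccggaaggccgCATTCCgctctccatgga
ZNF234 (chr19:44141595-44141624, + strand): attgtcacggcaCATTCCacggtagtttct
ZNF181 (chr19:34734159-34734188, - strand): cgcaggggacaaAATTCCaggcgcaacgaa
ZNF155 (chr19:43984039-43984068, - strand): tgcctgggccaaAATTCCcacgcctcccaa
ZNF568 and ZNF829 (chr19:36916041-36916070, + strand): acgaaacgttcgAATTCCtgcgagaaaagt

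At 30 of the 35 summits near these genes, or 85.7%, a core lay within 100 bp, against 67.2% of all peaks. The median distance from the core's middle to the summit was 23 bp. This distance was within 20 bp at 14 summits and within 50 bp at 25, and was not set beside that of other peaks. The nearest core was CATTCC at 15 summits, after A in 6 of them and after G in 6, and AATTCC at the other 15, after G in 8. The cores were chosen after the data had been seen, so their presence at these summits is a description.

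Some summits had a window clear of every annotated exon of a protein-coding gene, and a longer window is given for 3 of them, which had the highest signal values among those that hold a full motif. Each is 201 bases of hg38 centred on the summit, on the strand of the gene, with the TEAD motif ACATTCC or the AP-1 motifs TGACTCA and TGAGTCA in capitals on whichever strand they occur. GGAATGT is the TEAD motif read on the opposite strand.
ZNF28 and ZNF468 (chr19:52858029-52858229, - strand): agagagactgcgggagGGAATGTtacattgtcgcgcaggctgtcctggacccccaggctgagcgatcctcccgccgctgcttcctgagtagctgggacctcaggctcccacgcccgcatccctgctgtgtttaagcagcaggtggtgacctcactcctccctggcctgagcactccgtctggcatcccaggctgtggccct
ZNF611 (chr19:52722434-52722634, - strand): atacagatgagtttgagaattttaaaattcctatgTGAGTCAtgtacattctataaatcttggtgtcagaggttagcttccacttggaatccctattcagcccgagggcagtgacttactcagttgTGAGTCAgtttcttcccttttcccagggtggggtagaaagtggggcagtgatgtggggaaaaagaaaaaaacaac
ZNF699 (chr19:9306622-9306822, - strand): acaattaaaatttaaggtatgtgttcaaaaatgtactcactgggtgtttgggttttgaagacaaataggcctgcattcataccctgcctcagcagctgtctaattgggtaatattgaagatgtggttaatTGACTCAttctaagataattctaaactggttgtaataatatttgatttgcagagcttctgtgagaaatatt

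How many of the genes had TEAD4 close by was asked first. A summit lay within 2.5 kb of a transcription start site (TSS) of 34 of the 240 ZNF genes, or 14.2% (10.3 to 19.1), where 16.7% of all protein-coding genes had one. The share was 13.0% (11.3 to 15) for the other genes of chromosome 19 and 16.9% (12.7 to 22.3) for ZNF genes elsewhere, so the 3 intervals overlapped. Within 50 kb, 104 ZNF genes had a summit, or 43.3% (37.2 to 49.7), against 55.3% of all protein-coding genes. This was below the 53.9% (51.1 to 56.6) of the other genes of chromosome 19, with intervals that did not overlap. A single run of 29 genes, cluster 5 below, had 1 gene with a summit within 50 kb. The share without that run was not computed, so the difference may not hold for the other ZNF genes. ZNF genes elsewhere stood between them at 48.3% (42.0 to 54.7). Within 250 bp, a distance added after the data had been seen, the order was different. A summit lay that close to 26 ZNF genes of chromosome 19, or 10.8% (7.5 to 15.4), where 7.75% of all protein-coding genes had one. The other genes of the chromosome were at 5.34% (4.22 to 6.74) and ZNF genes elsewhere at 11% (7.63 to 15.7). Neighbouring genes can count the same peak, so the genes behind these intervals are not independent of each other.

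The summits near these genes sat close to the start site and mostly before it. Of the 34 genes with a summit within 2.5 kb, 26 had it within 250 bp, or 76.5%, and the median distance was 126 bp. The corresponding values were 41.0% and 360 bp for the other genes of chromosome 19, 65.0% and 126 bp for ZNF genes elsewhere, and 46.5% and 310 bp for all protein-coding genes. The nearest summit was upstream of the TSS at 26 of the 34 genes and downstream at 8, with a median offset of -89 bp, the minus sign standing for upstream. It lay in the first 250 bp upstream at 21 genes, or 61.8% (45.0 to 76.1), against 28.0% (21.6 to 35.3) for the other genes of the chromosome, 45.0% (30.7 to 60.2) for ZNF genes elsewhere and 33.2% (31.6 to 34.8) for all protein-coding genes. The closest summits were those of ZNF432 at 5 bp and ZNF181 at 8 bp inside the gene, then ZNF763 at 14 bp and ZNF439 at 16 bp upstream. ZNF611 was the last gene inside the limit, at 2130 bp, and ZNF841 the first outside it, at 3095 bp. The median number of TSSs per gene was 5 in each of the sets, and the part of TSS number in these distances was not tested.

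Taken over all 240, the start sites of the genes lay farther from TEAD4 peaks than those of the other genes of chromosome 19. The median distance from a gene's TSSs to the nearest summit was 66720 bp for the 240 genes, 43424 bp for the other genes of chromosome 19, 53308 bp for ZNF genes elsewhere and 39413 bp for all protein-coding genes. A total of 136 ZNF genes had no summit within 50 kb. For 13 of them the nearest was more than 500 kb away, a distance that 0 of the 1236 other genes of the chromosome reached, which allows a share of up to 0.243%. All 13 lay in 1 run of ZNF genes, cluster 5 below, which holds 3 other protein-coding genes. They are therefore not separate observations. The farthest were ZNF729 at 1063957 bp, ZNF98 at 1017118 bp, ZNF676 at 974467 bp, ZNF492 at 915279 bp and ZNF257 at 829946 bp, all from 1 cluster. At the other end, ZNF490 had 5 summits within 50 kb, and ZNF222, ZNF230, ZNF507 and ZNF574 had 4 each.

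The peaks were shared out unevenly between the clusters. Runs of at least 3 ZNF genes with at most 250 kb between neighbours formed 12 clusters, numbered here from the start of the chromosome, which held 226 of the 240 genes. The clusters together held 70 summits in 13.0 Mb, or 5.38 per Mb (exact Poisson 95% interval 4.19 to 6.80), against 8.74 (7.90 to 9.64) in the rest of chromosome 19 and 7.19 in the genome. Cluster 5 alone made up 3.59 of these Mb with 5 summits, and the density without it was not computed. It was 1.39 per Mb in cluster 5 and 16.4 per Mb in cluster 8, so 5.38 does not describe each cluster. The 34 genes with a summit within 2.5 kb lay in 8 of the 12 clusters, and 0 of the 14 genes outside every cluster had one, which allows a share of up to 21.4%.

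Cluster 3 (chr19:11483427-12640098, from ZNF653 to ZNF791) had the most such genes. Here 11 of 25 genes had a summit within 2.5 kb, or 44% (26.7 to 62.9), and 22 had one within 50 kb. The 11 were ZNF823, ZNF439, ZNF763, ZNF878, ZNF625, ZNF44, ZNF442, ZNF799, ZNF564, ZNF490 and ZNF791, and the cluster held 15 summits, or 13.0 per Mb (7.26 to 21.4). Cluster 8 (chr19:43525497-44500524) was densest, with 16 summits or 16.4 per Mb (9.38 to 26.6). In it 6 of 23 genes had a summit within 2.5 kb, namely ZNF155, ZNF230, ZNF223, ZNF225, ZNF234 and ZNF226. Cluster 9 (chr19:51571283-53580269) held 18 summits, and 7 of its 39 genes had one within 2.5 kb, namely ZNF175, ZNF432, ZNF83, ZNF611, ZNF28, ZNF468 and ZNF765.

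The other clusters had few or none. Cluster 7 had 4 of 24 genes (ZNF566, ZNF850, ZNF829 and ZNF568), cluster 2 had 2 of 11 (ZNF699 and ZNF426), cluster 6 had 2 of 5 (ZNF181 and ZNF792) and cluster 10 had 1 of 7 (ZNF784). Cluster 12 (chr19:57191500-58481230), at the end of the chromosome, held the most genes, 41, of which ZNF584 alone had a summit within 2.5 kb, or 2.44% (0.432 to 12.6). Cluster 5 (chr19:20535825-24129968) spanned 3.59 Mb with 29 genes and 5 summits, or 1.39 per Mb (0.452 to 3.25). In it 0 of 29 genes had a summit within 2.5 kb, which allows a share of up to 10.3%. Of those 5 summits, 4 lay inside the gene body of ZNF675, at least 102287 bp from its TSSs, with signal values of 192.9, 161.6, 126.8 and 21.05. The same cluster holds ZNF91, known for repressing SVA retrotransposons, whose nearest summit was 154132 bp away. ZNF93, known for repressing LINE-1 elements, lies in cluster 4, with a nearest summit at 124385 bp. These genes and ZNF675 were named after their values had been seen. Clusters 1, 4 and 11 had 0 of 5, 0 of 8 and 0 of 9 genes, with upper Wilson limits of 43.4%, 32.4% and 29.9%.

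Since duplicated sequence can lose reads that map to several places, the share of 50-base words that occur once in the genome was measured, 50 bases being the labelled read length. It was 89.7% inside the clusters and 85.0% in the rest of chromosome 19, and ranged from 86.1% to 93.9% over the 12 clusters. Within 500 bp of the canonical TSS the median was 100% both for the 34 genes with a summit within 2.5 kb and for the 206 without, with minima of 68.8% and 70.8%. The part of read mapping in these counts beyond this was not tested.

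The signal values near ZNF genes were below the middle of the list. A signal value is the peak caller's measure of enrichment for the pooled peak, with no unit given. The 35 peaks within 2.5 kb of the 34 genes had a median of 52.6 (exact 95% interval of the median 41.0 to 64.6) and a range of 9.65 to 187.0. All peaks had a median of 68.1, and peaks within 2.5 kb of any protein-coding gene one of 63.2. For peaks near other genes of chromosome 19 it was 59.7 (52.5 to 70.2), an interval that overlapped that of the ZNF genes. Peaks near ZNF genes elsewhere had a median of 68.3. Of the 35, 10 were above the median of the list, or 28.6%, against 45.5% of peaks near protein-coding genes. The highest reproducibility score was held by 21, or 60.0%, against 72.4% of peaks near protein-coding genes and 76.1% of all peaks. The q-value was above 0.05 for 2 of the 35, the weaker peaks of ZNF442 and ZNF564.

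The highest values belonged to a small group of genes in 5 clusters. ZNF181 had a signal of 187.0 and ZNF763 one of 186.6. The peak shared by ZNF28 and ZNF468 followed with 169.4, 529 bp upstream of the former and 480 bp upstream of the latter. ZNF439 had 155.8, ZNF611 139.4, ZNF83 134.9, ZNF699 131.7 and ZNF234 126.0. A gap separated these 8 peaks from the next, at ZNF625 with 77.33 and ZNF225 with 72.66. The values then declined through ZNF226 (68.00), ZNF823 (64.59), ZNF44 (62.56), ZNF792 (60.67), ZNF155 (59.89), ZNF564 (56.81), ZNF584 (56.64), ZNF432 (52.58) and ZNF223 (50.10). Taking the strongest peak of each gene, the lowest were ZNF799 with 29.05, ZNF850 with 30.01, ZNF784 with 32.66, ZNF765 with 36.78 and ZNF426 with 36.98.

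Some peaks served several genes. There were 3 peaks that lay within 2.5 kb of a pair of ZNF genes, at ZNF28 and ZNF468, ZNF490 and ZNF791, and ZNF568 and ZNF829, and 6 of the 35 were also within 2.5 kb of another protein-coding gene. Conversely, 4 genes had a pair of summits. Their spacing was 200 bp at ZNF442 and ZNF564, 204 bp at ZNF83 and 206 bp at ZNF765. In the whole list, 1618 summits, or 7.66%, were followed by another within 250 bp, at a median spacing of 202 bp.

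**Figure D1:**
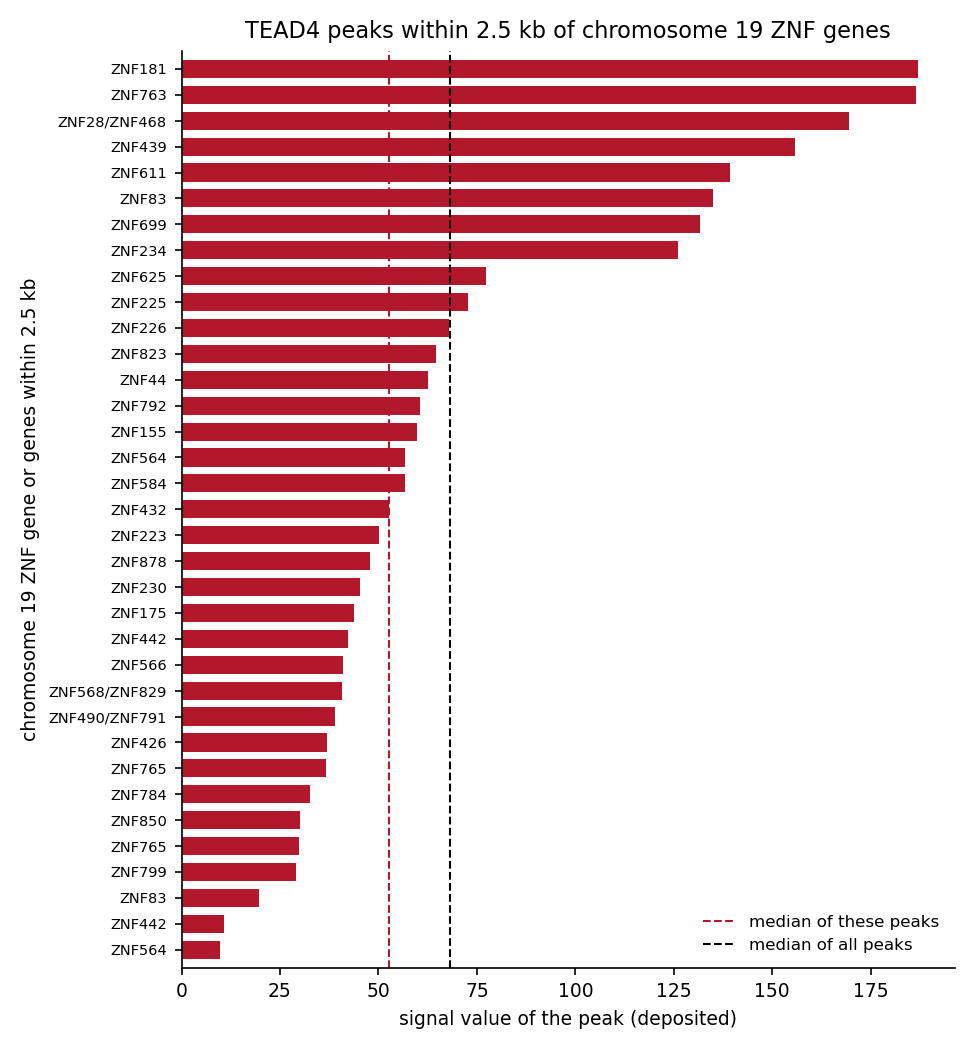
Deposited signal value (horizontal axis) of each of the 35 TEAD4 peaks within 2.5 kb of a chromosome 19 ZNF gene, labelled with that gene or pair of genes. Dashed lines are the medians of these peaks (52.6) and of all peaks (68.1), and the 8 peaks from ZNF181 down to ZNF234 stand at 126.0 or more.

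Motifs within 100 bp of the summit were then counted on both strands. The TEAD motif ACATTCC was found in 8 of the 35 peaks, or 22.9% (12.1 to 39.0), close to the 23% of all peaks and well over the 1.93% of equally long windows 2000 bp from the summits of chromosome 19. An AP-1 motif, TGACTCA or TGAGTCA, was found in 2 of the 35, the peaks of ZNF611 and ZNF699 shown above, or 5.71% (1.58 to 18.6). It was found in 25.4% of all peaks and 16.7% (15.6 to 17.9) of peaks within 2.5 kb of any protein-coding gene. The share was 18.1% (13.0 to 24.6) for peaks near other genes of chromosome 19 and 6.38% (2.19 to 17.2) for peaks near ZNF genes elsewhere. The interval of the 35 peaks held the 16.7% and overlapped those of peaks near other genes of chromosome 19 and near ZNF genes elsewhere. Those 2 peaks were also the farthest from their gene's TSS among the peaks nearest to each of the 34 genes, at 2130 bp and 1603 bp.

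The shorter core CATTCC was in 17 of the 35 peaks, or 48.6% (33.0 to 64.4), against 46.8% of all peaks. AATTCC was also in 17, or 48.6% (33.0 to 64.4), against 30.2% of all peaks, 28.3% (22 to 35.6) of peaks near other genes of chromosome 19 and 12.8% (5.98 to 25.2) of peaks near ZNF genes elsewhere. One or the other was in 30 peaks, or 85.7% (70.6 to 93.7), against 67.2% of all peaks, 68.1% (60.6 to 74.7) near other genes of the chromosome and 48.9% (35.3 to 62.8) near ZNF genes elsewhere. AATTCC was picked from the sequences of these same peaks, and related copies hold it at the same place, so this share was favoured by the choice.

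The same letters were counted in the 200 bases before the canonical TSS of every gene, whether it had a peak or not. Either core was present for 14 of the 34 ZNF genes with a summit within 2.5 kb, or 41.2% (26.4 to 57.8), and for 21 of the 206 without, or 10.2% (6.76 to 15.1). All 14 were among the 26 genes with a summit within 250 bp, of which they made up 53.8% (35.5 to 71.2). The cores were picked from these same peaks, so the contrast was favoured by the choice. It was present for 13.8% of the other genes of chromosome 19, 15.7% of ZNF genes elsewhere and 13.1% of all protein-coding genes. The whole TEAD motif was rare in this window, in 2 of the 34 genes with a summit within 2.5 kb, 1 of the 206 without and 1.61% of all genes.

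Related copies of these genes made it possible to set like sequences beside each other. The 30 bases around each core were matched, without gaps, to the 500 bp on either side of every TSS of the other ZNF genes, and matches of at least 24 identical bases were kept. Such a match was found at 34 genes. The core was intact in 27 of them, of which 10 had a summit within 2.5 kb of a TSS and 17 did not. The core was changed in 7, of which 3 had a summit within 2.5 kb, namely ZNF155, 107 bp from the copy, and ZNF28 and ZNF468, 272 bp from it. Over all 240 genes the share with such a summit was 14.2%. Where the core was intact the summit was not always at the copy, being 956 bp from it at ZNF44 and 305 bp at ZNF439. The cores used for matching came from peaks and some matched each other, so genes with a peak were favoured by the choice. The lines below show copies from cluster 9, the first with a peak and the next pair without.
ZNF765 (chr19:53394901-53394930, + strand): cccgttccagacAATTCCagggcttttgaa
ZNF813 (chr19:53467498-53467527, + strand): cccgttccagacAATTCCagggcttttgaa
ZNF808 (chr19:52535755-52535784, + strand): cccgttccagacAATTCCagggcttttgaa
ZNF83 (chr19:52690714-52690743, - strand): cccgttccagaaAATTCCagggcttttgaa

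The copies of ZNF765, ZNF813 and ZNF808 were identical over all 30 bases. At ZNF765 a summit lay 41 bp away, with a signal of 29.86, while the nearest summit was 72556 bp from the copy at ZNF813 and 154973 bp from that at ZNF808. The copy at ZNF83 shared 29 of the 30 bases and had a summit 14 bp from its core, with a signal of 134.9. In all, 9 of the 11 genes that matched the ZNF83 copy kept its core, and 1 of the 9, ZNF765, had a summit within 2.5 kb. Within 250 bp of the copies the share of words found once in the genome was 95.5% at ZNF765, 100% at ZNF813 and 91.3% at ZNF808. ZNF808 and ZNF813 were named after their values had been seen, as were the genes of the next lines.

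Clusters 3 and 8 held similar sets, in which copies with and without a peak are again shown together. ZNF823, ZNF442 and ZNF225 had a summit within 2.5 kb, and ZNF20, ZNF441 and ZNF224 did not. The ZNF442 copy lies at the weaker of that gene's peaks, with a signal of 10.78 and a q-value above 0.05, and its peak with a signal of 42.29 is 200 bp away.
ZNF823 (chr19:11739271-11739300, - strand): cagggagcctggAATTCCctgcacacactt
ZNF442 (chr19:12365972-12366001, - strand): cagtgagtctcgAATTCCcagcacacactt
ZNF20 (chr19:12140656-12140685, - strand): cactcagtctggAATTCCctgcacacactt
ZNF441 (chr19:11766729-11766758, + strand): cagtgagtctggAATTTCctgcacagactt
ZNF225 (chr19:44113301-44113330, - strand): tacacttcccagAATTCCctgggatccacc
ZNF224 (chr19:44094244-44094273, - strand): tacacttcccagAATTCCctgggacccaac

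The ZNF823 copy matched 10 other genes of its cluster, with the core intact in 6, of which 3 (ZNF442, ZNF439 and ZNF763) had a summit within 2.5 kb. The summit was 2 bp from the core of the copy at ZNF442, but 305 bp from the copy at ZNF439 and 303 bp from that at ZNF763, where it lay 12 bp and 15 bp from the CATTCC cores shown first. ZNF20 shared 26 bases with ZNF823 and kept the core, and the nearest summit was 16082 bp from the copy. ZNF441 also shared 26 bases but read AATTTC at the core, and the nearest summit was 27483 bp from the copy. ZNF224 shared 28 bases with ZNF225, core included, and the nearest summit was 19035 bp from that copy and 7961 bp from a TSS of ZNF224.

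CpG content was compared because many of these genes start in CpG-rich sequence. The ratio of observed to expected CpG within 500 bp of the canonical TSS was above 0.6 for 191 of the 240 genes, or 79.6%, for 56.8% of the other genes of chromosome 19 and for 83.5% of ZNF genes elsewhere. Among the CpG-rich ones, 15.7% (11.2 to 21.5) of the chromosome 19 ZNF genes had a summit within 2.5 kb, against 17.0% (14.4 to 19.9) of the other genes of the chromosome and 20% of all protein-coding genes. Among the CpG-poor ones the shares were 8.16% (3.22 to 19.2), 7.87% (5.87 to 10.5) and 10.2%.

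Inside the gene bodies, peaks were also found over the exon that usually encodes the fingers. Counting each gene and summit as a pair, 41 pairs had the summit inside a ZNF gene of chromosome 19. Of these, 14 were within 500 bp of a TSS, 11 were in an intron of the canonical transcript, 6 in its last exon, 0 in another exon, which allows a share of up to 7.32%, and 10 outside it. The last exon thus took 14.6% of the pairs, against 2.55% of the 275 pairs of the other genes of the chromosome, of which 64.4% were intronic. The last exons of ZNF genes were also longer, with a median of 3354 bp against 705 bp. Per length the densities were 6.75 summits per Mb of last exon (exact Poisson interval 2.48 to 14.7) and 4.78 (1.92 to 9.84), and these intervals overlapped. The 6 summits were in 4 genes, named after their values had been seen. ZNF490 had a signal of 338.8 there, ZNF404 had 280.7 and 134.5, ZNF699 had 138.1 and 32.81, and ZNF283 had 103.9. The values at ZNF490 and ZNF404 exceeded that of every peak within 2.5 kb of a ZNF gene of the chromosome, except the weaker summit of ZNF404.

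The proteins through which KRAB zinc fingers repress were looked up as a list of 15 cofactors. A summit lay within 2.5 kb of 5 of them, or 33.3% (15.2 to 58.3), an interval that holds the 16.7% of all protein-coding genes. Within 50 kb there was one for 12, or 80.0% (54.8 to 93.0), an interval that also holds the 55.3% of all. TRIM28, the corepressor bound by the KRAB domain and itself a gene of chromosome 19, had a summit 130 bp from a TSS with a signal of 45.14. ATF7IP, a partner of the methyltransferase SETDB1, had one at 88 bp and a highest signal of 61.07. CBX5, which encodes heterochromatin protein 1 alpha, had 4 peaks within 2.5 kb, the nearest summit at 276 bp and the highest signal at 140.7. The chromatin remodellers CHD3 and CHD4 had summits at 175 bp and 1007 bp, with signals of 41.28 and 126.6. The rest of the list, SETDB1 included, had no summit within 2.5 kb. The cofactors had a median of 15 TSSs per gene against 5 for the ZNF genes, and the part of this in the count was not tested. Among 25 other zinc finger genes of chromosome 19, caught by name (ZNF with a letter suffix, ZFP, ZSCAN, ZIM, ZIK1, ZBTB and PEG3), 2 had a summit within 2.5 kb, or 8% (2.22 to 25), and 7 within 50 kb. They were ZBTB45, at 168 bp, and ZFP36, at 2285 bp, which encodes an RNA-binding protein with fingers of another class.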

How the data were processed

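Reads of 50 bases were mapped to hg38 by the authors with Chromap, and the ENCODE pipeline for the irreproducible discovery rate (IDR) was applied to TEAD4 ChIP replicates 1 and 3. The peak caller is not given in the sources used here. The deposited list has 10 columns. The score is the authors' scaled IDR, from 830 to 1000, further columns hold the authors' signal value and −log10 q-value of each peak over the replicates together, and the last column is the summit offset from the peak start. What each column holds was inferred from its layout. The depth per sample is unknown.

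Start sites of all transcripts, of every transcript type, came from GENCODE release 44 on hg38. Shares were given Wilson and densities exact Poisson 95% intervals (Python 3 with numpy, pandas, scipy and matplotlib). Motifs were searched in hg38 on both strands. Distance, motif and word counts were checked on simulated data. Genes were named by rule: the 20 with the highest and the 5 with the lowest signal within 2.5 kb, the 5 with most summits within 50 kb, the 5 farthest, and cofactors with a summit within 2.5 kb. Others are said to be named after their values were seen, and the rest of the 34 are listed for completeness. Members and lists were chosen with earlier results of these data known. Alternatives changed start sites, peak thresholds, distances, windows, cluster gaps and gene sets.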

Additional observations from a re-analysis of the deposited data

How the results depend on the processing

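The reported shares, motif counts, signal and density were recomputed under 34 alternatives, 29 of them planned and 5 chosen after seeing the data. Of these, 23 moved the value by less than its interval and 11 by more. With only peaks of the highest score, the share of genes with a summit within 2.5 kb was 8.75%, that within 50 kb 32.5%, the median signal 68.0 and the density in clusters 3.77 per Mb. With only peaks above the median signal, the shares were 4.58% and 20.8%. The wider share was 32.1% at 25 kb and 58.3% at 100 kb. The TEAD motif was in 8.57% of peaks within 50 bp of the summit, and replacing it by CATTCC or AATTCC, both chosen after seeing the data, gave 48.6% each. Stricter peaks, shorter distances and narrower windows leave fewer summits or bases by construction. Chromosome 19 ZNF genes were above the other genes of the chromosome in 8 of 12 alternatives for 2.5 kb, so that order depends on the setting, and below them in 9 of 9 for 50 kb. The alternatives left out the cluster with most genes, cluster 12, but not cluster 5, where summits were sparse. Beyond that, no replicate could be omitted. No paired analysis was possible because replicates were combined into 1 list before deposit, and the precision of each peak's height is unknown.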
